A study of Mus musculus with 6 samples.

Results

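The sarcomeric myosin heavy chains are the motor subunits of the thick filament. They were represented by 8 genes (Myh1, Myh2, Myh3, Myh4, Myh6, Myh7, Myh7b and Myh8) of the 18194 named genes on the array. Their members were chosen by gene name: 12 of the 45101 probe sets carried exactly 1 of these symbols in the platform annotation. A further 2 probe sets, assigned to both Myh7 and Myh6, were not used as members. Each gene was represented by its brightest single-gene probe set. RNA of quadriceps muscle was hybridised to Affymetrix mouse arrays, 1 for each sample, with 3 knockout samples that carried a skeletal α-actin cre transgene and flox/flox Pofut1 alleles and 3 control samples that carried the same transgene and wild type Pofut1. All 6 samples came from C57/Bl6 mice aged 2 months. Pofut1 encodes the O-fucosyltransferase that modifies EGF-like domains, those of Notch receptors among them. The transgene is driven by the promoter of skeletal α-actin, a gene of muscle fibres, so the other cells of the muscle are not its intended target. Whether each sample was a separate animal is not stated in the labels, so p-values here reflect only the variation among these arrays, some of which may be technical.

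A muscle fibre contains mainly 1 adult myosin heavy chain, and that isoform sets how fast the fibre shortens. In mouse limb muscle the slow type I fibre uses Myh7, and the fast types IIa, IIx and IIb use Myh2, Myh1 and Myh4. Myh3 and Myh8 are the embryonic and perinatal chains, which developing and regenerating fibres make before the adult ones, Myh6 is the chain of the heart atrium and of the mouse ventricle, and Myh7b is an ancient relative of Myh7. Mouse quadriceps is mostly fast muscle whose slow fibres lie in its deep part.

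The genes of the fast trio lie side by side, and the sequences before their starts are shown because these 3 genes were far above background on every array, whereas Myh7 was near background on 1. In the RefSeq annotation of GRCm38.p6, Myh3, Myh2, Myh1, Myh4 and Myh8 occupy chr11:67078273-67308634, a span of 230 kb. Myh6 and Myh7 are neighbours on chromosome 14, at 54941921 to 54968017 and 54970684 to 54994626, and Myh7b is at 155611243 to 155634307 on chromosome 2. The RefSeq promoter table held all 8 members, and the 250 bases before the annotated start are printed 5′ to 3′ for 4 of them, at chr11:67237562-67237811 (plus strand), chr11:67199852-67200101 (plus), chr11:67170777-67171026 (plus) and chr14:54994550-54994799 (minus strand, for the more downstream of its annotated starts). Capitals mark the longest run shared by Myh1, Myh2 and Myh4, and the TATA box letters TATAAAAG.
Myh4: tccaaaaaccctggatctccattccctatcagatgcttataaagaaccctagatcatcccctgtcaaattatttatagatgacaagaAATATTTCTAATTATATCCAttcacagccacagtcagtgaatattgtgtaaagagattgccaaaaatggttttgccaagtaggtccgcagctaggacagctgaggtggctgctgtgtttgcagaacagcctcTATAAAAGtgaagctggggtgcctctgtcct
Myh1: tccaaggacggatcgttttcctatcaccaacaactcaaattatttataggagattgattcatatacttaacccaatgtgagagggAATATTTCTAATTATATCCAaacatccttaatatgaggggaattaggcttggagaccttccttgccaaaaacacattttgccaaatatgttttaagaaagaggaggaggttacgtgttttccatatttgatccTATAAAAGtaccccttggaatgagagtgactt
Myh2: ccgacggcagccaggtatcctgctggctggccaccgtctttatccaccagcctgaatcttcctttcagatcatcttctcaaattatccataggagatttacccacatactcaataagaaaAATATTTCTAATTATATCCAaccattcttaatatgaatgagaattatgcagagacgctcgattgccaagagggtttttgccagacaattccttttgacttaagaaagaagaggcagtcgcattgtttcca
Myh7: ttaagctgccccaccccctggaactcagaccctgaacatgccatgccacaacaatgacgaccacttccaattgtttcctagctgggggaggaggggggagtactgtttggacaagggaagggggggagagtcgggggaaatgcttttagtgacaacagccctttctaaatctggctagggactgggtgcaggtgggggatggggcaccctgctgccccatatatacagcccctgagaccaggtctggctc
The shared run, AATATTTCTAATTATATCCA, is 20 bases long and begins at positions -163, -165 and -130 relative to the starts of Myh4, Myh1 and Myh2. Searched on both strands of all 32851 windows of this length in the table, it occurred in 3, those of Myh1, Myh2 and Myh4. Myh8, the next gene of the cluster, shares a run of 17 bases with Myh4, which in Myh4 lies upstream of the capitals. Myh7 shares no run longer than 8 bases with Myh4. The letters TATAAAAG occur on either strand in 1.51% of all windows and in those of Myh1, Myh3 and Myh4. A match is a description of these windows and not evidence of a bound factor.

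The array labelled control 3 was unlike the rest. Its gene-level values correlated with theirs at 0.940 to 0.945, against 0.980 to 0.991 among the other 5 arrays. Its 3′ over 5′ intensity ratio for Gapdh, a measure of RNA integrity and cDNA length, was also the highest. That ratio was 3.70 in knockout replicate 2 and 10.5 in the array labelled control 3, and the other arrays lay between 1.73 and 1.97. Pofut1 read 220, 231 and 194 in knockout replicates 1 to 3, against 301, 380 and 90.6 in the arrays labelled control 1 to 3 (log2 fold change -0.02 ± 0.52 SE, limma adjusted p = 0.998). The Pofut1 reading of the array labelled control 3 thus went against its label. It comes from the brightest Pofut1 probe set alone, in the array with the highest Gapdh ratio. The part of RNA quality in that reading was not tested. No value shows whether the probe set lies in the deleted part of the gene. Knockout replicate 2 and control replicate 2 had a female pattern of sex-chromosome transcripts (Xist at 1349 and 1414) and the other arrays a male one. The tissue label was borne out by its markers: all 9 skeletal muscle markers were on average above background, an intensity of 80.2 set by the 95th percentile of 36 genes of other tissues. Of 8 heart markers 7 were at or below background on every array. The other, Tnnt2, is made by immature skeletal fibres as well.

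None of the 8 members passed the test between knockout and control muscle. Their limma adjusted p, over all 18194 genes, was 0.971 to 0.994, and 0 members had an unadjusted p under 0.05, where 469 of all genes (2.58%) did. Over all genes 0 passed adjustment as well (0%), in this fit and in each of 16 alternative ones. Of the members 5 had higher values in the knockout and 3 lower, with a median log2 fold change of 0.07, beside -0.01 over all genes. For Myh7, Myh2, Myh1 and Myh8 both the lowest and the highest array were labelled control.

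**Figure D1:**
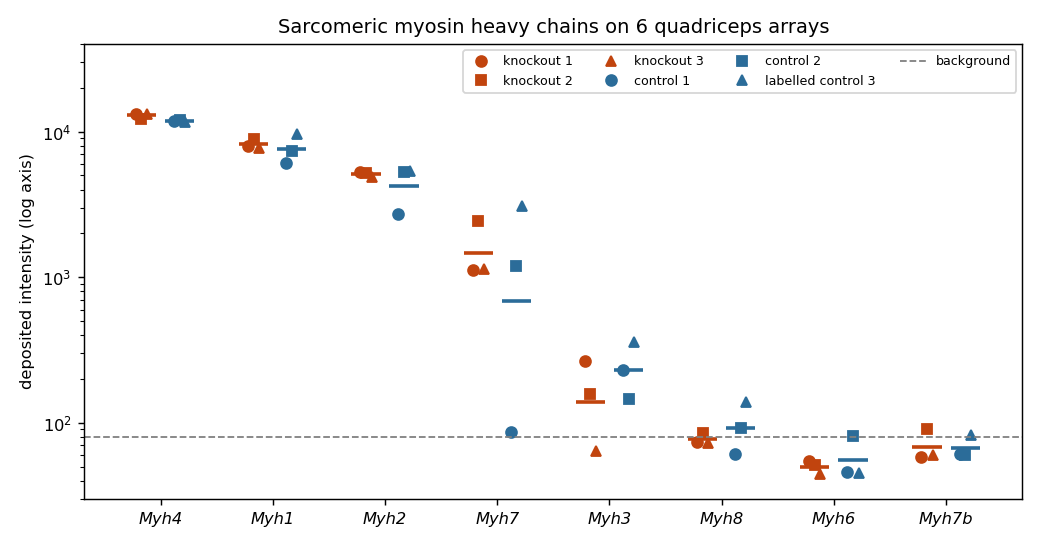
Deposited intensity (log axis) of the 8 sarcomeric myosin heavy chain genes, knockout left of control for each gene. Points are single arrays, short bars the geometric means of 3 arrays, and the dashed line the background of 80.2. Levels of different genes come from different probe sets and are not comparable. Myh7 reads 85.9 in control replicate 1 and at least 1114 in every other array.

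Slow myosin varied more than any other member, by 36.0-fold between the lowest and the highest array. Myh7, the heavy chain of type I fibres, had intensities of 1114, 2423 and 1144 in knockout replicates 1 to 3, against 85.9, 1192 and 3091 in the arrays labelled control 1 to 3. Control replicate 1 stood just above background and 13-fold below the next lowest array, and the 3 knockout values lay inside the range of the control values. The log2 means were 10.51 ± 0.64 in the knockout and 9.41 ± 2.68 in the control (SD, n = 3 each). The log2 fold change was 1.10 ± 1.21 (SE), with a 95% interval of -1.76 to 3.95, a limma adjusted p of 0.971 and a permutation p of 0.9 (exact, two-sided), where 3 against 3 arrays cannot go below 0.1. In bulk muscle fewer slow fibres and less Myh7 RNA per fibre cannot be told apart.

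Control replicate 1 decided the direction of that difference. Without it the log2 fold change of Myh7 was -0.40 (limma adjusted p = 0.876), and without any other single array it lay between 0.73 and 2.19. Without the array labelled control 3 it was 2.19 (limma adjusted p = 0.802). Without control replicate 2 it was 1.50 and without knockout replicate 2 it was 0.73. The highest Myh7 values belonged to knockout replicate 2 and to the array labelled control 3, which also had the highest Gapdh 3′ over 5′ ratios. The part of RNA quality in these values was not tested. Without both of these arrays the log2 fold change was 1.82 (limma adjusted p = 0.741), and control replicate 1, with a ratio of 1.97, was not among them. The brighter of the probe sets assigned to both Myh7 and Myh6 read 206, 509 and 234 in the knockout arrays, against 92.9, 183 and 502 in the control arrays. Its lowest value was also in control replicate 1. The dimmer one was below background on every array.

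**Figure D2:**
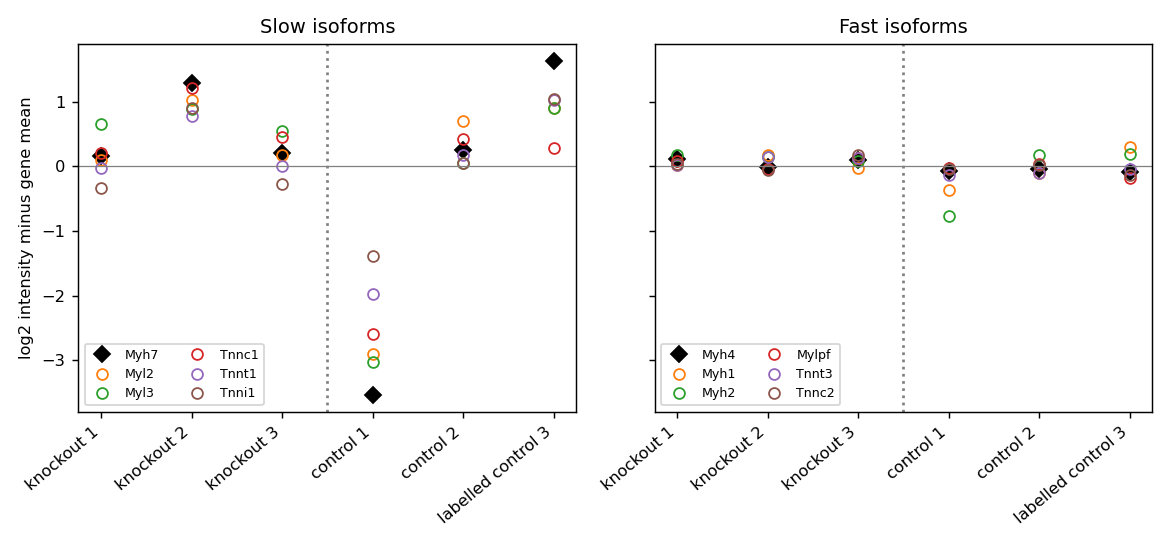
Log2 intensity minus the gene's mean over the 6 arrays, for slow isoforms (left panel) and fast isoforms (right panel), with knockout arrays left of the dotted line and control arrays right of it. In control replicate 1 the deviation is -3.54 for Myh7 and -0.07 for Myh4.

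The genes whose pattern lay nearest to that of Myh7 were slow isoforms of other sarcomere proteins. Likeness was the root mean square distance between centred log2 values over the 6 arrays, among 3423 other genes above background in at least 3 arrays and with a range of at least 1 log2 unit. The 5 nearest were Myl2 (0.45), Myl3 (0.48), Tnnc1 (0.68), Tnnt1 (0.72) and Tnni1 (0.97). Myl2 and Myl3 are the regulatory and essential light chains that bind the slow heavy chain, and Tnnc1, Tnnt1 and Tnni1 are the 3 slow troponin subunits. Myl2 read 1374, 2598 and 1441 in the knockout arrays, against 171, 2070 and 2389 in the control arrays. Myl3 read 2249, 2629 and 2078 in the knockout arrays, against 176, 1476 and 2663 in the control arrays. Control replicate 1 was the lowest array for all 5, by 8.02-fold below the next for Myl2, 8.38-fold for Myl3, 6.98-fold for Tnnc1, 3.86-fold for Tnnt1 and 2.07-fold for Tnni1. With 6 arrays this is a description, and the array far from the rest weighs heavily in it.

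Slow fibre genes as a list followed the same array only in part. Of 15 members, all above background on average, 9 had higher values in the knockout and 6 lower, 0 passed in either direction, and the median log2 fold change was 0.19, beside -0.01 over all genes. Control replicate 1 was the lowest array for 8 of the 15, where it was the lowest for 12.2% of all genes. The list's median moved to -0.26 without that array. The other 7 included Tpm3, slow tropomyosin, at 1365, 1252 and 1052 in the knockout arrays, against 1336, 1324 and 836 in the control arrays, and Csrp3, a muscle LIM protein of the Z-disc. Csrp3 read 1293, 1375 and 840 in the knockout arrays, against 1089, 2674 and 1253 in the control arrays. The 2 list members with the smallest p were Myl6b, a light chain, and Ankrd2, a stretch-responsive ankyrin protein of slow fibres (limma adjusted p = 0.971 for both). Myl6b read 62.7, 77.0 and 74.2 in the knockout arrays, all below background, against 83.7, 89.3 and 132 in the control arrays. Ankrd2 had a log2 fold change of -0.49 ± 0.28 (SE).

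The difference between slow and fast myosin placed the samples in an order that did not follow genotype. For each array the deviation of log2 Myh4 from its mean over the 6 arrays was subtracted from that of log2 Myh7, so that 0 is the mean of the 6 arrays and a positive value means relatively more slow myosin. The value was 0.05, 1.30 and 0.10 in knockout replicates 1 to 3, against -3.47, 0.29 and 1.72 in the arrays labelled control 1 to 3. Knockout replicates 1 and 3 and control replicate 2 lay close together, and both ends of the order were arrays labelled control. Myh4 itself deviated by -0.09 to 0.11, so this order restates that of Myh7. The 2 highest arrays were those with high Gapdh 3′ over 5′ ratios, and the part of RNA quality was not tested. The same difference between the medians of the slow and fast fibre lists was 0.08, 0.46 and -0.26 in the knockout arrays, against -0.48, 0.16 and 0.41 in the control arrays. Of the 2 samples with a female pattern, knockout replicate 2 was near the high end at 1.30 and control replicate 2 was at 0.29.

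Fast myosins were more even. Myh4, the heavy chain of the fastest IIb fibres, had intensities of 13313, 12216 and 13229 in knockout replicates 1 to 3, against 11795, 12047 and 11620 in the arrays labelled control 1 to 3. All 3 knockout arrays lay above all 3 control arrays, by a small margin. The log2 fold change was 0.13 ± 0.08 (SE; 95% interval -0.05 to 0.31; limma adjusted p = 0.971; exact two-sided permutation p = 0.1, the smallest possible). By brightest probe sets it was the single member of 8 without overlap between the groups in either direction. Of all genes 3.33% had all knockout values above all control values, and the share in the other direction was not counted. Without any single array the log2 fold change stayed between 0.11 and 0.17. With the mean of the Myh4 probe sets it was 0.31, and the dimmer of these overlapped between the groups. The brighter Myh4 probe set was among the 7 brightest of its array in every sample, and the deposited table does not flag saturated probe sets.

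Myh2, the chain of oxidative IIa fibres, was low in 1 sample. It read 5253, 5167 and 4915 in the knockout arrays, against 2737, 5255 and 5332 in the control arrays. Control replicate 1 again had the lowest value, and the other 5 arrays lay within 4915 to 5332. The log2 fold change was 0.27 ± 0.25 (SE; 95% interval -0.34 to 0.87; limma adjusted p = 0.971). Without control replicate 1 it was -0.051.

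Myh1, the chain of IIx fibres, ranged by 1.59-fold over the arrays. It read 8028, 8869 and 7747 in the knockout arrays, against 6092, 7372 and 9665 in the control arrays. The array labelled control 3 was the highest and control replicate 1 the lowest, so the control values enclosed those of the knockout. The log2 fold change was 0.12 ± 0.17 (SE; 95% interval -0.29 to 0.52; limma adjusted p = 0.971), and without control replicate 1 it was -0.042. In control replicate 1 the deviation from the mean of 6 arrays was thus -3.54 for Myh7, -0.77 for Myh2, -0.37 for Myh1 and -0.07 for Myh4 on the log2 scale. These are values of the brightest probe set of each gene, and in the same array the third probe set of Myh1 deviated by 0.055 and the second of Myh4 by -0.087.

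**Figure D3:**
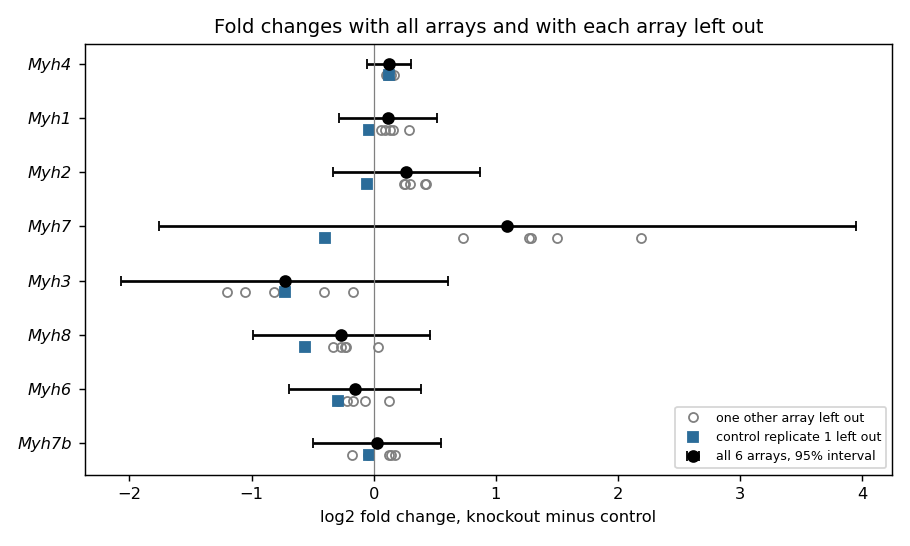
Log2 fold change of each member, knockout minus control. Black points with bars are the limma estimate over all 6 arrays with its 95% interval, open circles leave out 1 other array, and squares leave out control replicate 1. The intervals of all 8 members include 0, and the squares of Myh1, Myh2, Myh7 and Myh7b lie below 0 whereas their black points lie above.

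Different probe sets of Myh1 and Myh4 disagreed. The second brightest probe set of Myh1 followed the brightest one, with 4721, 5872 and 4871 in the knockout arrays, against 3302, 4478 and 7497 in the control arrays. The third deviated from its mean in the opposite direction to the brightest one in 5 of the 6 arrays, with 947, 701 and 1241 in the knockout arrays, against 883, 1082 and 478 in the control arrays. It was low in knockout replicate 2 and lowest in the array labelled control 3, where the other 2 probe sets were highest. The second probe set of Myh4 was lowest in the same 2 arrays, with 4498, 2742 and 4290 in the knockout arrays, against 2973, 3897 and 1618 in the control arrays (log2 fold change 0.50). Knockout replicate 2 and the array labelled control 3 are the 2 arrays with high Gapdh 3′ over 5′ ratios. Each deviation was taken from a mean over all 6 arrays, so these 2 arrays also shape the signs in the other arrays. The part of RNA quality in the disagreement was not tested. None of the probe sets passed adjustment over all 45101 (0%), with limma adjusted p of 0.988 to 0.998 for the 12 of the members. The fast chains also share long stretches of near-identical coding sequence, so signal from 1 gene on the probes of another is possible, in particular for the brightest Myh1 probe set, whose "_x_at" suffix marks probes shared with other transcripts.

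**Figure D4:**
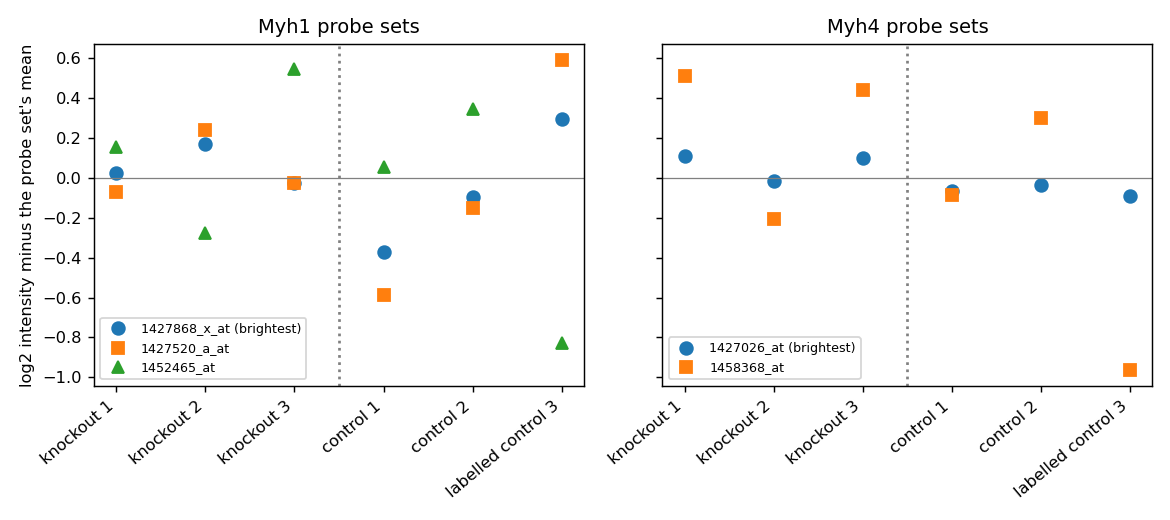
Log2 intensity minus the probe set's mean over the 6 arrays, for the 3 probe sets of Myh1 (left panel) and the 2 of Myh4 (right panel), knockout arrays left of the dotted line. In the array labelled control 3 the brightest Myh1 probe set reads 9665 and the third 478, which is its lowest value.

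The probe set that the annotation names for Myhas, the antisense transcript of the cluster, is listed under the same source sequence as the brightest one of Myh1, so its values cannot be assigned to the antisense RNA. It read 4822, 5720 and 4937 in the knockout arrays, against 3939, 4454 and 6462 in the control arrays. Its highest value, like those of the 2 brighter Myh1 probe sets, was in the array labelled control 3, where the third Myh1 probe set was lowest.

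The embryonic chain Myh3 was detected and varied within both groups. It read 266, 156 and 63.9 in knockout replicates 1 to 3, against 231, 147 and 358 in the arrays labelled control 1 to 3. Knockout replicate 3 was below background, and the groups overlapped. The log2 fold change was -0.73 ± 0.57 (SE; 95% interval -2.07 to 0.61; limma adjusted p = 0.971; exact two-sided permutation p = 0.5). Without knockout replicate 3 it was -0.17, without knockout replicate 1 it was -1.20, and without the array labelled control 3 it was -0.41.

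Genes of leukocytes were among those nearest to Myh3. By the same distance the 5 nearest were Adgre1 (0.34), the F4/80 antigen of macrophages, Nckap1l (0.35), an actin regulator of blood cells, Snhg18 (0.38), a long non-coding RNA, Incenp (0.40), a component of the mitotic chromosomal passenger complex, and Ccr2 (0.40), the chemokine receptor of inflammatory monocytes. Adgre1 read 207, 149 and 97.3 in the knockout arrays, against 309, 136 and 331 in the control arrays. The summed intensity of the macrophage marker list was 8946, 5812 and 5190 in the knockout arrays, against 9899, 6310 and 7731 in the control arrays. This was highest in knockout replicate 1 among the knockout arrays and in control replicate 1 among the control arrays. All 7 members of the list were above background on average, 3 had higher and 4 lower values in the knockout, and 0 passed. In the array labelled control 3, where Myh3 was highest, the list's median deviation was -1.10, against 0.83 for Adgre1, so Adgre1 did not stand for the list. Over 6 arrays the likeness is a description. The part of macrophages in the Myh3 values was not tested.

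**Figure D5:**
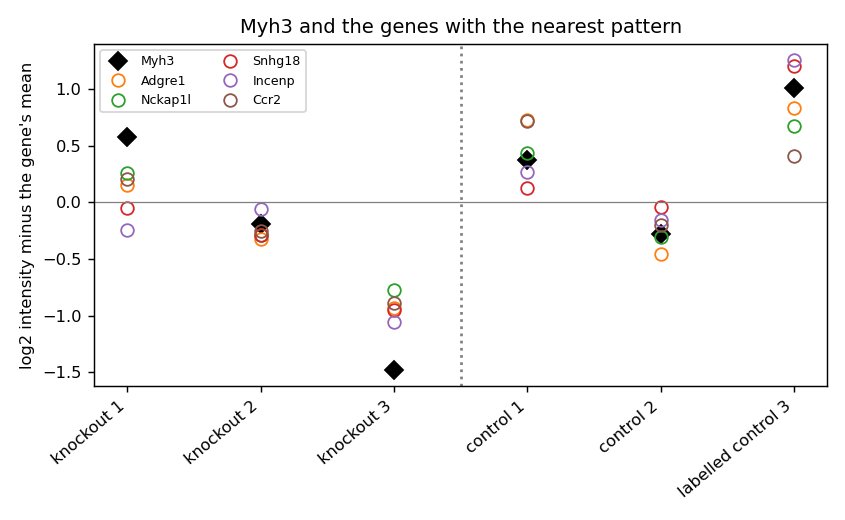
Log2 intensity minus the gene's mean over the 6 arrays, for Myh3 (filled diamonds) and the 5 genes nearest to it (open circles), knockout arrays left of the dotted line. All 6 genes are lowest in knockout replicate 3, where Myh3 reads 63.9.

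The perinatal chain Myh8 lay close to background. It read 73.8, 84.7 and 72.6 in the knockout arrays, against 61.0, 92.4 and 140 in the control arrays, and 3 of the 6 values were above background. The log2 fold change was -0.27 ± 0.31 (SE; 95% interval -0.99 to 0.46; limma adjusted p = 0.971). It was 0.034 without the array labelled control 3. The 5 nearest genes, at distances of 0.08 to 0.11, were Flnc, the muscle filamin, Arhgap6, Bmp6, Fam151a and Hr, and all were highest in the array labelled control 3.

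Neither Myh6 nor Myh7b was above background on average. The brighter Myh6 probe set read 54.4, 51.1 and 44.4 in the knockout arrays, against 45.7, 81.6 and 45.5 in the control arrays, and passed background in control replicate 2 alone. The other Myh6 probe set read 38.5 to 40.7 throughout. Myh7b read 58.3, 91.1 and 59.8 in the knockout arrays, against 60.8, 59.8 and 81.9 in the control arrays. Its values above background were those of knockout replicate 2 and the array labelled control 3, the arrays in which Myh7 was highest. The log2 fold changes were -0.15 ± 0.23 for Myh6 and 0.03 ± 0.22 for Myh7b (SE; limma adjusted p = 0.971 and 0.994).

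Partners of the fast chains differed little between the groups. Of 14 fast fibre genes 12 had higher values in the knockout and 2 lower, where 8418 of all 18194 genes were higher. With 0 past the threshold, the median log2 fold change was 0.07, beside -0.01 over all genes. The skeletal muscle markers, 6 of 9 higher, had a median of 0.09, so the small shift was not particular to fast fibre genes. Tnnt3, fast troponin T, had the smallest p of the list, with 9573, 10367 and 10307 in the knockout arrays, against 8560, 8754 and 9112 in the control arrays (log2 fold change 0.19 ± 0.08 SE, limma adjusted p = 0.971). Myl1, the essential light chain of fast myosin, read 9995, 9888 and 10146 in the knockout arrays, against 9172, 9358 and 9434 in the control arrays, at 0.10 ± 0.07. Like Myh4, both had all knockout values above all control values, as did 3.33% of all genes. Both were named for the smallest p of their list, a choice that favours genes without overlap.

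Genes that fold, degrade or regulate myosin gave no call either. Of 8 measured chaperones and turnover genes 3 were higher and 5 lower in the knockout (median log2 fold change -0.03). They included Unc45b, the chaperone that folds the myosin motor, at -0.15 ± 0.12, and Trim63, the ubiquitin ligase that targets myosin heavy chains, at 0.24 ± 0.15 (SE). All knockout values of Unc45b lay below all its control values, and the share of all genes in that direction was not counted. Of 21 measured regulators of fibre type 12 were higher and 9 lower, with a median of 0.17. Nfatc2, a calcineurin-dependent transcription factor, read 290, 331 and 231 in the knockout arrays, against 168, 175 and 97.3 in the control arrays, without overlap (log2 fold change 0.98 ± 0.30 SE, limma adjusted p = 0.971). Mef2d, a MADS-box activator of slow genes, had 0.41 ± 0.14 (SE), also without overlap and not past the threshold. Nfatc2 and Mef2d were named for the smallest p of their list, and 3.33% of all genes had all knockout values above all control values. In the array labelled control 3 the list of regulators had a median deviation of -0.22. Of 10 genes of developing and regenerating muscle 3 were higher and 7 lower, 0 passed and the median was -0.05. The 2 with the smallest p were acetylcholine receptor subunits, the fetal Chrng and Chrna1. Chrng read 65.5, 61.8 and 53.1 in the knockout arrays, against 72.7, 61.8 and 94.8 in the control arrays, and was above background in the array labelled control 3 alone. Chrna1 had a log2 fold change of -0.41 ± 0.25 (SE).

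Class II myosins outside the sarcomere were measured as 4 genes, 2 higher and 2 lower, and 0 passed. Myh11, the smooth muscle heavy chain, read 245, 292 and 230 in the knockout arrays, against 195, 193 and 64.2 in the control arrays (log2 fold change 0.92 ± 0.45 SE, limma adjusted p = 0.971). Its lowest value was in the array labelled control 3. Myh9, a non-muscle heavy chain, had 0.26 ± 0.17 (SE).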

How the data were processed

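The authors deposited one table of probe set intensities, which its values show to be linear. GCOS and RMA are named per the submitters' processing notes, without versions, order or roles. RMA compresses differences of dim genes. Per the labels' protocols, total RNA was amplified and labelled as biotin cDNA. Intensities were log2-transformed without a pseudocount. Each of 18194 genes was taken from its brightest single-gene probe set, and the symbols of all 8 members matched the RefSeq table of GRCm38.p6 by Entrez identifier. A linear model with the group as its single term was fitted in limma 3.58.1 (R 4.3.3; empirical Bayes with a mean-variance trend, two-sided, Benjamini-Hochberg over all genes, threshold 0.05), on 3 knockout and 3 control arrays, whose number limits the precision. Exact permutation tests used all splits of 3 against 3. The fit was checked on artificial data of known answer. It recovered 16% of changes of 1 log2 unit and 73% of changes of 2 log2 units, so a gene that did not pass may still differ. Members, lists and alternatives were chosen with earlier results of these data known. Named were all members and the 5 genes nearest to each eligible member. The 2 genes with the smallest p were named for the lists of myosins, fibre genes, turnover, regulators and development. This was not done for the lists of cell type markers, where Lmod1 of smooth muscle had a smaller limma p than Nfatc2 and did not pass adjustment. Other genes were chosen after their values were seen. Alternatives covered normalization, variance model, array weights, dim genes, probe set choice, sex pattern, replicate block and leaving out arrays. Python 3.11.15 drew the figures.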

Additional observations from a re-analysis of the deposited data

How the results depend on the processing

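Over all genes 0 passed the threshold in each of the 16 alternatives, the replicate block included (0 genes), with a lowest adjusted p of 0.0579 in limma. The deviations of same-numbered knockout and control arrays from their group means had correlations of 0.19, -0.15 and -0.11. Same-numbered arrays had the same sex pattern. With 3 arrays in each group these values cannot decide whether the numbers pair the arrays, and the labels state no pairing. No member passed in any alternative. Among fits on other settings, the log2 fold change of Myh8 turned to 0.051 with array weights. Array weights also moved Myh7 to 2.39 (main value 1.10), Myh2 to 0.54 (0.27), Myh1 to 0.28 (0.12), Myh3 to -0.48 (-0.73) and the slow fibre median to 0.48 (0.19). The mean of probe sets moved Myh4 to 0.31 (0.13) and Myh6 to -0.089 (-0.15). That of Myh7b turned to -0.030 without both arrays with a high Gapdh ratio, an alternative chosen after seeing the data, which also moved Myh7 to 1.82, Myh2 to 0.42, Myh1 to 0.23, Myh6 to -0.31, Myh8 to -0.036 and the slow fibre median to 0.36. Leaving out each array in turn gave log2 fold changes of -0.042 to 0.29 for Myh1, -0.051 to 0.43 for Myh2, -1.20 to -0.17 for Myh3, 0.11 to 0.17 for Myh4, -0.29 to 0.13 for Myh6, -0.40 to 2.19 for Myh7, -0.18 to 0.18 for Myh7b and -0.57 to 0.034 for Myh8. Directions turned without control replicate 1 for Myh1, Myh2, Myh7 and Myh7b, without control replicate 2 for Myh6 and Myh7b, without knockout replicate 2 for Myh7b, and without the array labelled control 3 for Myh8. Myh3 and Myh4 kept their direction in every alternative. Leaving out each array in turn, the medians of the lists ranged from 0.043 to 0.13 for fast fibre genes, -0.26 to 0.55 for slow fibre genes, 0.013 to 0.22 for fibre type regulators, -0.18 to 0.092 for developing and regenerating muscle and -0.076 to 0.019 for chaperones and turnover. With quantile normalization the fast fibre median was 0.032. The differences per array moved by less than the spread between replicates in the 3 alternatives tried for Myh7 against Myh4. The same held in the 2 tried for the slow against the fast list. For Myh7 against Myh4 that spread is a wide limit that decides little, with an SD of 2.68 among control and 0.71 among knockout arrays. With the mean of probe sets the Myh7 against Myh4 value turned to -0.15 in knockout replicate 1 and -0.071 in knockout replicate 3. The cause of these changes was not tested. Intensities near background limit what can be said of Myh6, Myh7b, Myh8, Myl6b and Chrng.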
